A study of Mus musculus with 12 samples.

Results

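The response of 3T3-L1 cells to differentiation medium was read from 4 of the series' 12 arrays, those of experiment A in this line. 3T3-L1 is an established mouse line, a clone of embryonic fibroblasts committed to the fat lineage, and stands for preadipocytes in culture. The tested arrays were harvested after 36 hr in medium with 0.25 µM dexamethasone, and the others just before that medium was added (0 hr). Each time holds 1 array of cells given a control siRNA (si-Ctr) and 1 of cells labelled as given an siRNA against Setdb1 (si-Setdb1), an enzyme that methylates histone H3 at lysine 9. These form 2 pairs of 36 hr against 0 hr, matched by siRNA, and all 4 cultures were grown with fetal bovine serum and had their first siRNA transfection on day -5. The protocol lists a second transfection on day 0, the day on which the medium was added, so 36 hr differs from 0 hr in culture time and days since transfection as well as in medium. What else the differentiation medium held is not given in the sources used here, and the part of dexamethasone alone was not tested. Of the other arrays, 4 come from 10T1/2 cells, a mouse mesenchymal line with several fates open to it, at 48 hr in the same dose and at 0 hr, each with si-Ctr and si-Setdb1. The last 4 come from a second 3T3-L1 experiment, B, titled 0 hr, with si-Ctr, si-Setdb1, si-Mbd1 and si-Mcaf1.

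Dexamethasone is a synthetic glucocorticoid. It binds the glucocorticoid receptor (gene Nr3c1), which then moves to the nucleus, binds DNA at glucocorticoid response elements to activate some genes, and holds back inflammatory genes that other factors drive. Preadipocytes treated with a differentiation mix first express Cebpb and Cebpd, which help to switch on Pparg and Cebpa, and these in turn drive the genes of lipid storage. In 3T3-L1 cultures this mix classically also sets off a round of cell division before the cells fill with fat.

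Values are the deposited intensities, a linear signal that was scaled on every array to the same trimmed mean. A response is the difference of log2(intensity + 0.8), 36 hr minus 0 hr, averaged over the 2 pairs after quantile normalisation. The added 0.8 draws the differences of dim genes toward 0. Where 1 time read near the floor, the size of a response still depended on the settings and arrays used. Ear3, described below, ran from 5.54 to 9.17 over the alternatives. Intensities under 9.26 lay below the level that a gene's mean over the 12 arrays had to reach for testing. The median intensity was 11.5 to 11.8 on the 4 arrays. The probe set with the most signal for Setdb1 read 154.7 (si-Setdb1) against 179.8 (si-Ctr) at 36 hr, and 149.9 (si-Setdb1) against 124.8 (si-Ctr) at 0 hr. Since the second comparison goes against the label, these are called the arrays labelled si-Setdb1.

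The cells kept the marker profile of fibroblasts at both times. Of 14 preadipocyte and fibroblast markers, 13 lay at or above that level on each of the 4 arrays, with Cd34 the exception at 4.7 to 5.6 at 36 hr and 1.6 to 2.0 at 0 hr. Their summed intensity was 51928.2 (si-Ctr) and 39348.3 (si-Setdb1) at 36 hr, against 42781.3 and 44804.9 at 0 hr. Of the 10 macrophage and leukocyte markers, 6 (si-Ctr) and 5 (si-Setdb1) lay at or above that level at 36 hr, against 4 and 3 at 0 hr. The brightest was Cd14, with 82.4 and 101.4 at 36 hr and 91.5 and 77.3 at 0 hr, followed by Lyz2 and Csf1r at 21.9 to 63.2 over the 4 arrays. Ptprc, Itgam, Cd3e and Cd79a, which define leukocytes, read 6.5 or less at both times. The 8 endothelial markers summed to 32.2 and 26.9 at 36 hr and to 26.8 and 42.0 at 0 hr. The 10 macrophage and leukocyte markers together summed to 204.5 and 205.5 at 36 hr and to 242.8 and 167.2 at 0 hr, and the 8 epithelial ones to 60.5 and 78.5 at 36 hr and to 47.8 and 80.2 at 0 hr. Of 10 mature adipocyte markers, 9 were on the array. These moved with both time and siRNA. Their sum was 2064.4 (si-Ctr) and 11424.3 (si-Setdb1) at 36 hr, against 314.8 and 2754.9 at 0 hr. At or above the testing level were 3 (si-Ctr) and 7 (si-Setdb1) of the 9 at 36 hr, against 2 and 7 at 0 hr. The part of these markers in the results below was not tested. In bulk RNA, more cells of a type and more RNA per cell cannot be told apart.

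After 36 hr, 70 of 12433 tested genes passed limma's test at an adjusted p under 0.05, with 35 higher (0.282%) and 35 lower (0.282%) than at 0 hr. Adjusted p ran from 0.0191 to 0.048, and 1990 genes had an unadjusted p under 0.05. The rises led the falls in size, with a median response of 2.34 among the 35 higher genes and -1.95 among the 35 lower ones. At least 2-fold changes in both pairs were seen for 34 of the higher and all 35 of the lower genes. On both 36 hr arrays, 33 of the 35 higher genes exceeded each of the 4 si-Ctr and si-Setdb1 arrays at 0 hr in experiments A and B, and 34 of the 35 lower genes lay below all 4. The calls depended on the arrays used. No gene passed when any 1 of the 4 arrays was left out (1139 genes at an unadjusted p under 0.05 without the si-Ctr 0 hr array, 1169 without the si-Setdb1 0 hr array, 1415 without the si-Ctr 36 hr array and 1691 without the si-Setdb1 36 hr array) or without the experiment B arrays (1996 genes), whereas a variance model with an intensity trend called 514.

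The plot sets one pair against the other. The fit counts disagreement of the 2 pairs as spread. Agreement of the pairs among the genes past the threshold, and the separation of the times given above, were thus partly fixed by the choice of genes. Without any test, 188 genes were at least 2-fold higher in both pairs (1.51% of the genes tested) and 207 were at least 2-fold lower (1.66%). Any rise in both pairs was seen for 32.8% of genes and any fall for 32%. Counts of list members that moved in both pairs, given below, are to be read beside these shares. Across genes, which are not independent replicates, the 2 pair differences correlated with r = 0.476, and with r = 0.711 over the 7016 genes of a mean intensity of at least 100.

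**Figure D1:**
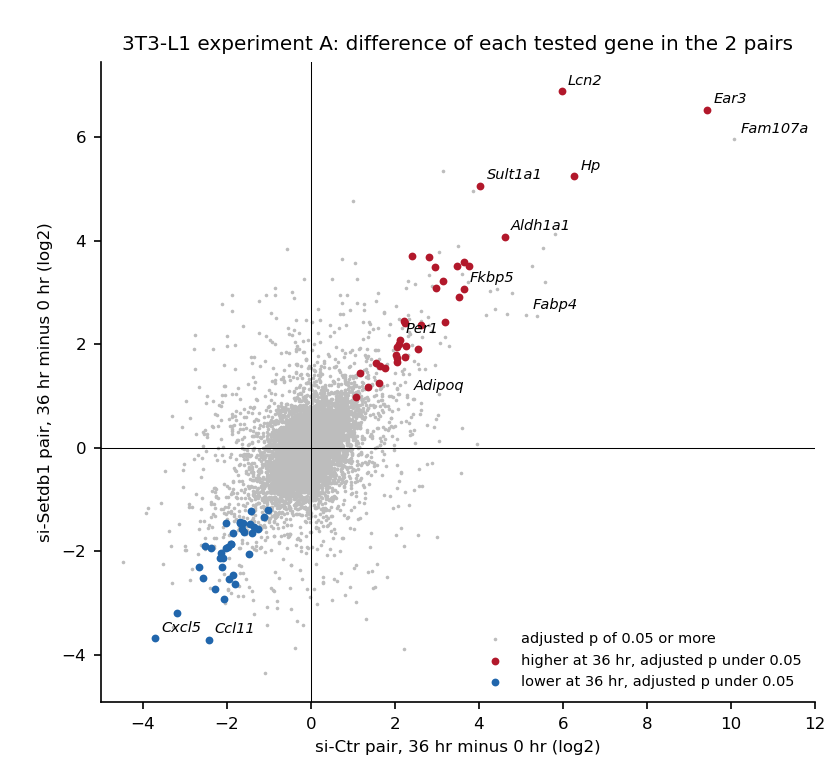
Difference between 36 hr and 0 hr (log2) of each tested gene in the si-Ctr pair (horizontal axis) and the si-Setdb1 pair (vertical axis) of 3T3-L1 experiment A. Coloured points are the 35 higher and 35 lower genes past an adjusted p of 0.05. Not all of these lie near the diagonal. Ear3 read 863.3 against 0.3 in the si-Ctr pair and 1207.3 against 10.1 in the si-Setdb1 pair. Fam107a, Fabp4 and Adipoq are far from 0 and did not pass.

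Classic glucocorticoid targets were among the rises. Of 32 genes on the list of glucocorticoid-induced genes, 26 were tested, 8 rose and none fell, beside the 0.282% of all genes that rose. The list's median response was 1.24 against -0.0018 over all genes, and 24 of the 26 were higher in both pairs and 1 lower. With the intensity trend, 20 of the 26 rose, beside 1.79% of all genes.

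Fkbp5, a co-chaperone that lowers the receptor's affinity for its hormone, read 2262.8 (si-Ctr) and 1594.6 (si-Setdb1) at 36 hr, against 171.7 and 175.5 at 0 hr. Both 36 hr arrays stood far above both 0 hr arrays, and the response was 3.36 ± 0.25, or 10.3-fold (limma, adjusted p = 0.0228). Each SE given here, also after ±, is limma's standard error from the fit to 10 arrays. It is not the spread of the 2 pairs. Tsc22d3, which encodes the anti-inflammatory protein GILZ, read 3364.3 and 2304.9 at 36 hr and 403.0 and 256.7 at 0 hr, again without overlap, a response of 3.04 ± 0.19 (adjusted p = 0.0191). Per1, a clock gene that glucocorticoids induce directly, reached 330.2 and 287.1 at 36 hr, against 75.4 and 64.7 at 0 hr (response 2.11 ± 0.23, adjusted p = 0.0458). For none of the 3 genes did arrays of the 2 times overlap.

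Zbtb16, a zinc finger transcription factor also called PLZF, read 184.9 and 177.5 at 36 hr, against 14.7 and 13.5 at 0 hr, a response of 3.49 ± 0.37 (adjusted p = 0.0407). Errfi1, an inhibitor of EGF receptor signalling, read 1992.5 and 1767.5 at 36 hr, against 209.7 and 314.5 at 0 hr (response 2.81 ± 0.24, adjusted p = 0.03). Glul, which makes glutamine from glutamate and ammonia, read 1291.7 and 1173.2 at 36 hr, against 161.0 and 94.2 at 0 hr (3.22 ± 0.24, adjusted p = 0.0228). Neither of these groups overlapped. Sult1a1, a sulfotransferase for phenols and hormones, had the highest response on the list at 4.55 ± 0.29 (adjusted p = 0.0191), with 1011.5 and 847.1 at 36 hr and 58.0 and 21.5 at 0 hr. The last of the 8, Arl4d, a small GTPase, rose by 1.62 on the log2 scale.

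Other well-known targets did not pass. Serpina3n read 21.8 and 20.1 at 36 hr and 1.1 and 0.6 at 0 hr, a response of 3.70 at an adjusted p of 0.09. Ddit4, an inhibitor of mTORC1, read 2124.6 and 2107.7 at 36 hr, against 349.2 and 668.1 at 0 hr (2.08, adjusted p = 0.0694). The metal-binding genes Mt1 and Mt2 had responses of 1.07 and 1.54 (adjusted p = 0.211 and 0.111), and Dusp1, a phosphatase that shuts off MAP kinases, had 0.87 (adjusted p = 0.144). At the low end, Sgk1, a kinase that regulates ion transport, read 1435.8 and 1053.1 at 36 hr, against 976.1 and 1082.1 at 0 hr, so the times overlapped (0.20, adjusted p = 0.677). Angptl4, which inhibits lipoprotein lipase, was the 1 member lower in both pairs at -0.64 (adjusted p = 0.438).

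The receptor gene itself read lower. Nr3c1 had 436.1 and 319.1 at 36 hr and 649.2 and 794.4 at 0 hr, with no overlap, a response of -0.91 ± 0.21 that did not pass (adjusted p = 0.147). On the list of the receptor, its cofactors and steroid-handling genes, none of 15 tested genes passed and the median was -0.11.

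A search for the glucocorticoid response element as GNACANNNTGTNC, a palindrome and so the same on both strands, covered the promoter windows that RefSeq gives on GRCm38.p6, from 250 bases before to 50 after the start site. The windows below are shown because they are the ones from the list that hold it, with the match in capitals. Of the 27 listed genes with a window, 3 hold it (11.1%), against 0.537% of the 27025 genes with a window.
Mt1, chr8:94178955-94179047 (+): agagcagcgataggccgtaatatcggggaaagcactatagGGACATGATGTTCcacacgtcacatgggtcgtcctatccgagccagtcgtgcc
Serpina3n, chr12:104406590-104406682 (+): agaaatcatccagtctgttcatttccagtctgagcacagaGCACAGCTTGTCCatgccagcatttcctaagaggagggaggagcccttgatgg
Sgk1, chr10:21993662-21993754 (+): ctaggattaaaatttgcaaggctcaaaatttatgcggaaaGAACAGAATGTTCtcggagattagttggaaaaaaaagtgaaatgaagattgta
The 3 matches begin 94, 78 and 188 bases before the start site. None of these 3 genes passed the test, and none of the 24 risen genes with a window held the motif there. A match is a description of letters and not a bound site, and distant elements lie outside these windows.

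Beyond the list, genes of secreted acute phase proteins were among the largest rises. Of 22 acute phase and complement genes, 16 were tested, 3 rose and none fell, beside the 0.282% of all genes that rose. In both pairs 10 were higher and 5 lower, 8 were at least 2-fold higher, beside 1.51% of all genes, and the median of 1.66 became 0.96 with a pseudocount of 16 and 1.03 when more of the dim genes were left out. Lcn2, which encodes the iron-scavenging protein lipocalin 2, read 495.2 and 216.7 at 36 hr, against 5.7 and 0.9 at 0 hr (response 6.43 ± 0.59, adjusted p = 0.0316). Hp, haptoglobin, which binds free haemoglobin, read 237.5 and 767.5 at 36 hr, against 1.8 and 16.7 at 0 hr (5.76 ± 0.42, adjusted p = 0.0228). Cp, ceruloplasmin, a copper-carrying ferroxidase, rose by 2.00 on the log2 scale (adjusted p = 0.0476). Its 7 probe sets at or above the testing level ran from 0.08 to 2.09 with the deposited scaling. Both 0 hr arrays of experiment A were near the floor of the signal for Lcn2. For Hp, only the si-Setdb1 array of these was above the testing level, and the highest 0 hr array of experiments A and B read 19.0. Orm1, an orosomucoid, read 176.8 and 260.9 at 36 hr and 2.5 and 15.5 at 0 hr, a response of 4.70 that did not pass (adjusted p = 0.0969). Serping1, the C1 inhibitor, had the lowest response of the list at -1.56 (adjusted p = 0.295).

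The highest response among genes that passed was that of Ear3, an eosinophil-associated ribonuclease. Its probe set read 863.3 and 1207.3 at 36 hr, against 0.3 and 10.1 at 0 hr, a response of 7.98 ± 0.67 (adjusted p = 0.03). The Ear genes are near-identical copies, and a probe set assigned to several of them read 1961.7 and 2430.9 at 36 hr, against 4.1 and 9.4 at 0 hr, so which copy gave the signal is uncertain. Fam107a, which encodes an actin-binding protein, went further still at 2706.4 and 2372.5 against 1.2 and 32.1, a response of 8.02 ± 0.97, which did not pass (adjusted p = 0.0527). Its other probe sets gave 1245.8 and 946.3 against 0.7 and 14.5, and 252.7 and 254.5 against 0.9 and 7.6. All 3 probe sets thus separated the times.

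Among the other large rises of genes with more than a clone name, Aldh1a1, which oxidises retinaldehyde to retinoic acid, read 497.3 and 256.2 at 36 hr, against 17.7 and 13.0 at 0 hr (4.35 ± 0.22, adjusted p = 0.0191). Ctla2a, a cathepsin inhibitor, read 792.3 and 384.9 at 36 hr, against 59.2 and 29.0 at 0 hr (3.62 ± 0.38, adjusted p = 0.04), and its near copy Ctla2b shares a probe set with it. Neither gene's groups overlapped, and on both of these the si-Ctr array read higher within each time. Ifi207, of the interferon-inducible p200 family, and Sybu, which links vesicles to kinesin, rose by 3.25 and 3.22 on the log2 scale. The gene that the table lists as Clca1, a member of the calcium-activated chloride channel regulators, rose by 3.18 ± 0.20, with 1748.2 and 1822.7 at 36 hr and 192.6 and 183.8 at 0 hr. RefSeq now gives that symbol as an older name of Clca3a1 too, so the identity within the family is open to doubt.

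The 35 rises are completed by genes outside the naming rule or in other lists. Xdh, xanthine dehydrogenase, the last step of purine breakdown, read 2014.5 and 1774.6 at 36 hr, against 478.0 and 495.4 at 0 hr (1.90 ± 0.13, adjusted p = 0.0228). Nampt, which makes the NAD precursor nicotinamide mononucleotide, rose by 1.89, Tead4, a partner of YAP, by 2.33, and Sphk1, a sphingosine kinase, by 2.23. Syn2 (3.05), Trim29 (2.50), Wnk4 (2.12), Gdap10 (2.05), Adgrg2 (2.00) and Acvr2b (1.85) followed. Responses of 1.03 to 1.66 were those of Slc22a18, Adamts15, Slc43a3, Adh1, Mknk2 and Lyst, and 6030422H21Rik, which has a clone name only and was passed over by the naming rule for that reason, had 3.64. Slc22a18 was dim, with a mean of 8.85 at 36 hr and 2.05 at 0 hr. The highest si-Ctr or si-Setdb1 array at 0 hr in experiments A and B read 13.9 for it, above that 36 hr mean. E2f2 is described with the cell cycle genes.

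**Figure D2:**
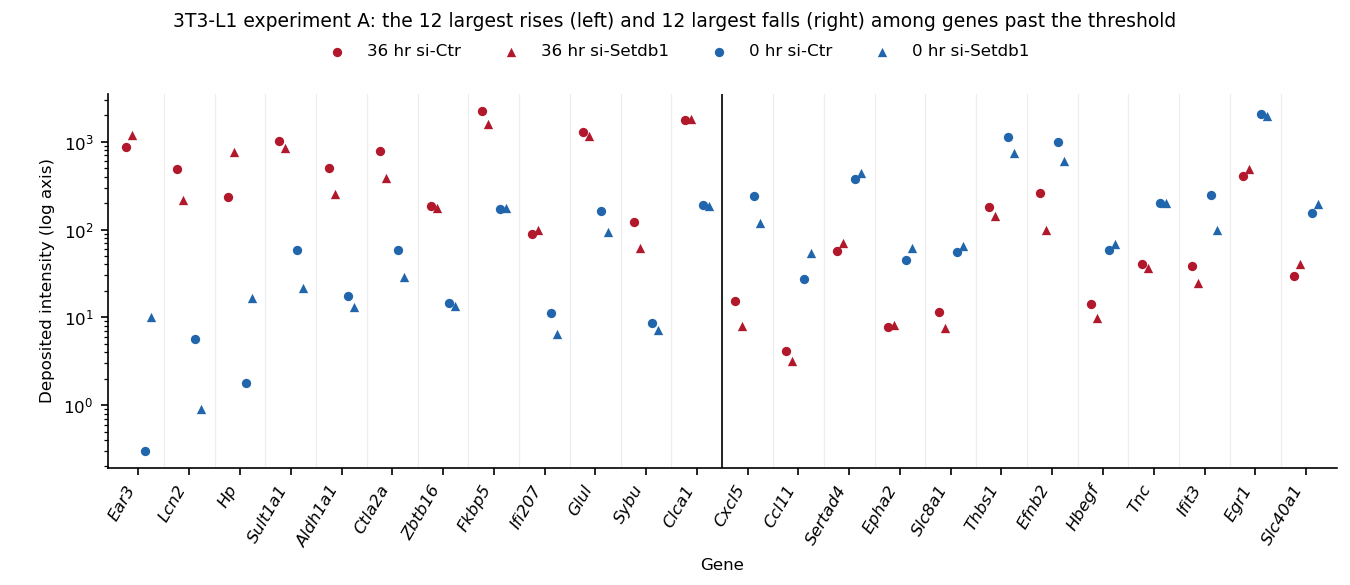
Deposited intensity (log axis) on the 4 arrays of 3T3-L1 experiment A, with 36 hr in red and 0 hr in blue (circles si-Ctr, triangles si-Setdb1), for the 12 largest rises and the 12 largest falls among genes past the threshold that have more than a clone name and an intensity of at least 20 on both arrays of the higher time. For each of the 24 genes both 36 hr points lie on the same side of both 0 hr points.

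Among the falls, Cxcl5, a chemokine that attracts neutrophils, dropped furthest. It read 15.2 and 8.0 at 36 hr, against 240.2 and 118.4 at 0 hr, with no overlap, and fell by 3.69 on the log2 scale (SE 0.18, adjusted p = 0.0191), 12.9-fold. Ccl11, eotaxin, an attractant of eosinophils, read 4.1 and 3.2 at 36 hr, against 27.3 and 53.5 at 0 hr, and fell by 3.07 (SE 0.32, adjusted p = 0.04).

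Of 34 inflammatory genes known to be lowered by glucocorticoids, 24 were tested, Cxcl5 was the 1 that fell and none rose, beside the 0.282% of all genes that fell. The median was -0.62. In both pairs 19 were lower and 2 higher, beside 32% and 32.8% of all genes. At least 2-fold lower in both were 7, beside 1.66% of all genes. With the intensity trend, 10 of the 24 fell, beside 2.34% of all genes. Ccl2, a monocyte attractant, read 102.0 and 151.8 at 36 hr, against 628.4 and 624.2 at 0 hr, a response of -2.24 that did not pass (adjusted p = 0.129). Ptgs2, the inducible cyclooxygenase, had -2.0 (adjusted p = 0.0989), Tlr2, a receptor for bacterial lipoproteins, -1.24 (adjusted p = 0.0969) and Irf1 -0.79 (adjusted p = 0.113). Ptges, which makes prostaglandin E2, was higher in both pairs at 0.74 (adjusted p = 0.341).

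Genes that growth factor signalling induces mostly read lower at 36 hr. Of 22 such feedback and immediate-early genes, 20 were tested, 5 fell and none rose, beside the 0.282% of all genes that fell. In both pairs 18 were lower, beside 32% of all genes, and the median response of -1.22 became -0.74 with the stricter filter. With the intensity trend, 11 of the 20 fell, beside 2.34% of all genes. Egr1, an immediate-early transcription factor, read 412.0 and 495.1 at 36 hr, against 2049.0 and 1947.5 at 0 hr, and fell by 2.16 (SE 0.16, adjusted p = 0.0228). Epha2, an ephrin receptor, read 7.8 and 8.1 at 36 hr, against 44.8 and 60.8 at 0 hr, and fell by 2.50 (SE 0.20, adjusted p = 0.0256). Their 36 hr arrays agreed closely with each other and did not reach the 0 hr arrays. The EGF receptor ligands Hbegf and Ereg fell by 2.22 and 1.57 (adjusted p = 0.043 and 0.04), and Etv5, an ETS factor, by 1.46 (adjusted p = 0.0339). The 2 Etv5 probe sets at or above the testing level had -1.55 and -0.17 with the deposited scaling. Egr3 read 3.9 and 10.9 at 36 hr and 49.9 and 75.1 at 0 hr, a response of -2.96 just short of the threshold (adjusted p = 0.0621), while Myc had 0.37 (adjusted p = 0.375). Of the 12 tested cAMP-responsive genes, a set that shares members with this one, none passed, and the median was -0.46. Fos read 20.6 and 54.1 at 36 hr, against 118.8 and 122.8 at 0 hr (-1.69, adjusted p = 0.123).

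Several matrix and adhesion genes fell. Of 38 genes of matrix other than collagens, adhesion and matrix turnover, 37 were tested, 4 fell and none rose, beside the 0.282% of all genes that fell. In both pairs 25 were lower, beside 32% of all genes, and the median was -0.34. Thbs1, thrombospondin 1, which activates latent TGF-beta, read 179.6 and 141.8 at 36 hr, against 1142.6 and 751.5 at 0 hr, and fell by 2.48 (SE 0.21, adjusted p = 0.03). Tnc, tenascin C, an adhesion-modulating glycoprotein, read 40.9 and 36.6 at 36 hr, against 199.0 and 200.5 at 0 hr, and fell by 2.21 (SE 0.14, adjusted p = 0.0191). Neither gene's times overlapped. Thbs2 fell by 1.74 (adjusted p = 0.0402) and the integrin subunit Itgb5 by 1.52 (adjusted p = 0.03).

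The collagens as a group were split, with none of 30 passing, 13 higher and 15 lower in both pairs, and a median of -0.08 whose sign depended on the setting (-0.12 to 0.01). Col1a1, of fibrillar collagen, read 928.5 and 788.0 at 36 hr, against 1251.3 and 1320.8 at 0 hr (-0.63, adjusted p = 0.125). Col4a2, of basement membrane collagen, read 4181.8 and 3726.7 at 36 hr, against 1703.9 and 1896.6 at 0 hr (1.04, adjusted p = 0.129). The times did not overlap for either gene, and the 2 went opposite ways. None of 22 contractile genes and targets of serum response factor passed, and the median was -0.59. In both pairs 17 were lower, 7 of them at least 2-fold, beside 32% and 1.66% of all genes. Of these 22, 10 fell with the intensity trend, beside 2.34% of all genes. Ccn1, a YAP and serum-response target, had -2.02 (adjusted p = 0.0689) and Myl9, a myosin light chain, -1.55 (adjusted p = 0.0979).

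Other large falls were those of Sertad4 (by 2.54, adjusted p = 0.0191), Slc8a1, a sodium-calcium exchanger (by 2.49, adjusted p = 0.0316), Efnb2, an ephrin ligand (by 2.24, adjusted p = 0.039) and Slc40a1, ferroportin, the iron exporter (by 2.14, adjusted p = 0.0228). The probe sets at or above the testing level were all lower for Slc8a1 and Efnb2, but by unlike amounts. With the deposited scaling they ran from -2.60 to -0.19 for Slc8a1 and from -2.30 to -0.14 for Efnb2. Slc40a1 read 29.6 and 40.7 at 36 hr, against 152.5 and 195.6 at 0 hr. The other genes that fell lie outside the naming rule. Among these Fgf7, keratinocyte growth factor, fell by 1.74, and Cdc42ep3, an effector of CDC42, by 1.88. Others were Pcdhb19, Mapk12, Sorbs2, 3110035C09Rik, Irgm2, Hs6st2, Ptchd1, Zfp618, Megf10, Rtp4, Unc5c, Fam131b, Zfp41 and Zfp608, with responses from -2.14 to -1.12. Pcdhb19 and Mapk12 were dim, with means of 1.1 and 1.4 at 36 hr and 7.15 and 8.35 at 0 hr, all under the testing level.

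Interferon-stimulated genes, a program of antiviral effectors that interferon signalling drives through interferon-stimulated response elements, were mostly lower at 36 hr. Of 32 on the list, 30 were tested, 2 fell and none rose, beside the 0.282% of all genes that fell. In both pairs 24 were lower and 2 higher, and 10 were at least 2-fold lower, beside 1.66% of all genes. The median was -0.87, and 8 fell with the intensity trend, beside 2.34% of all genes. Ifit3, which binds to the antiviral adaptor MAVS, read 38.1 and 24.7 at 36 hr, against 247.7 and 100 at 0 hr, and fell by 2.20 (SE 0.20, adjusted p = 0.0316). Xaf1, a pro-apoptotic interferon target, read 140.9 and 117.4 at 36 hr, against 446.8 and 381.8 at 0 hr, and fell by 1.61 (SE 0.17, adjusted p = 0.0407). Its dimmer probe set, at 10.6 and 8.2 against 9.0 and 5.1, did not share that fall. Ifit1 had -2.47 (adjusted p = 0.0897), Gbp2, a guanylate-binding GTPase, -2.01 (adjusted p = 0.0801) and Rsad2, viperin, -1.49 (adjusted p = 0.0786). Of 3 Rsad2 probe sets at or above the testing level, 2 were lower. With the deposited scaling they ran from -1.57 to 0.34. For Ifit3 and Ifit1 the si-Ctr array was above the si-Setdb1 array at 0 hr. At the other end Tap1 and Psmb9, of antigen processing, were higher in both pairs at 0.40 and 0.59 (adjusted p = 0.307 and 0.159).

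In the RefSeq windows (GRCm38.p6), the core of the interferon-stimulated response element, a GAAA pair with any 2 bases between, searched on both strands, stands in 14 of the 25 listed genes that have a window (56%), against 3.99% of all genes with one. Of the 24 risen genes with a window 2 hold it (8.33%), and of the 21 fallen ones 2 (9.52%). The 4 windows are those of members that are named above and read lower. Windows of Xaf1, Tap1 and Psmb9, also named above, are not shown. Capitals mark the match, which here reads as its reverse complement.
Ifit3, chr19:34583333-34583422 (+): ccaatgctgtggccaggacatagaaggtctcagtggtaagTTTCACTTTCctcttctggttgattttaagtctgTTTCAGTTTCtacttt
Ifit1, chr19:34640745-34640834 (+): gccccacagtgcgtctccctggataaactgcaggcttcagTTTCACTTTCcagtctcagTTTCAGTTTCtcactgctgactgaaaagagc
Rsad2, chr12:26456523-26456612 (-): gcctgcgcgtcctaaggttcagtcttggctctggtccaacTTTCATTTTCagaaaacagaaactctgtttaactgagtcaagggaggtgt
Gbp2, chr3:142620564-142620653 (+): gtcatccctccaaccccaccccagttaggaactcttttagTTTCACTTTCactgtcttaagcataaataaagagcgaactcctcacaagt
The Ifit3 and Ifit1 windows hold 2 matches each, and those of Rsad2 and Gbp2 hold 1.

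Adipogenic factors and lipid genes mostly read higher at 36 hr, and none of them passed the test. With the intensity trend, 6 of the factors rose and 4 fell, and 4 of the lipid and secreted genes rose and none fell, beside 1.79% of all genes that rose and 2.34% that fell. Of 25 tested adipogenic transcription factors, 15 were higher and 9 lower in both pairs, with a median of 0.28. Cebpd read 1502.9 and 1512.6 at 36 hr, against 540.3 and 436.0 at 0 hr, with no overlap (1.58 ± 0.19, adjusted p = 0.0527). Nr1h3, the oxysterol receptor LXR alpha, read 26.2 and 68.0 at 36 hr, against 6.2 and 13.8 at 0 hr (2.02 ± 0.23, adjusted p = 0.0504), and Klf5, an early factor upstream of Pparg, had 1.76 (adjusted p = 0.074). Cebpb read 1509.1 and 1737.8 at 36 hr, against 1194.3 and 1209.7 at 0 hr (0.37, adjusted p = 0.398).

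The late factors differed in level with the siRNA label. Pparg read 270.8 (si-Ctr) and 865.8 (si-Setdb1) at 36 hr, against 130.5 and 365.8 at 0 hr. The si-Setdb1 array at 0 hr was thus above the si-Ctr array at 36 hr, and the response was 1.14 ± 0.27 (adjusted p = 0.15), with pair differences of 1.08 and 1.20. Cebpa read 21.9 (si-Ctr) and 137.8 (si-Setdb1) at 36 hr, against 21.6 and 119.7 at 0 hr, so it hardly moved with time (0.16 ± 0.49, adjusted p = 0.909). Preadipocyte genes and inhibitors of adipogenesis went the other way, with a median of -0.47. In both pairs 16 of 27 were lower and 6 higher, beside 32% and 32.8% of all genes. Egr1 was the 1 that fell, beside 0.282% of all genes. Gata2, which holds preadipocytes undifferentiated, read 37.7 and 54.8 at 36 hr, against 111.6 and 157.6 at 0 hr (-1.40, adjusted p = 0.0689).

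Of 34 tested adipocyte lipid and secreted genes none passed. In both pairs 24 were higher and 3 lower, beside 32.8% and 32% of all genes. At least 2-fold higher in both were 12, beside 1.51% of all genes. The median was 0.65, with 0.42 in the si-Ctr pair and 1.01 in the si-Setdb1 pair. Fabp4, the fatty acid carrier of adipocytes, read 1053.3 (si-Ctr) and 7876.1 (si-Setdb1) at 36 hr, against 26.9 and 1345.8 at 0 hr, a response of 3.85 ± 0.63 (adjusted p = 0.0865). Adipoq, adiponectin, read 23.5 (si-Ctr) and 2198.3 (si-Setdb1) at 36 hr, against 3.8 and 1068.7 at 0 hr (1.64 ± 0.57, adjusted p = 0.263). For both genes the 0 hr array labelled si-Setdb1 was above the 36 hr si-Ctr array, so the times overlapped, and each pair was higher at 36 hr. Plin4, a lipid droplet coat protein, did not follow the siRNA label, with 959.3 and 662.2 at 36 hr, against 268.0 and 281.1 at 0 hr (1.51 ± 0.26, adjusted p = 0.0909). Retn, resistin, reached 310.9 on the si-Setdb1 array at 36 hr alone, against 7.4 on the si-Ctr array of that time and 3.0 and 9.5 at 0 hr. Lpl, lipoprotein lipase, was as high before the medium as after it, at 2846.1 and 5315.3 at 36 hr and 2562.2 and 5505.0 at 0 hr (-0.02, adjusted p = 0.977).

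**Figure D3:**
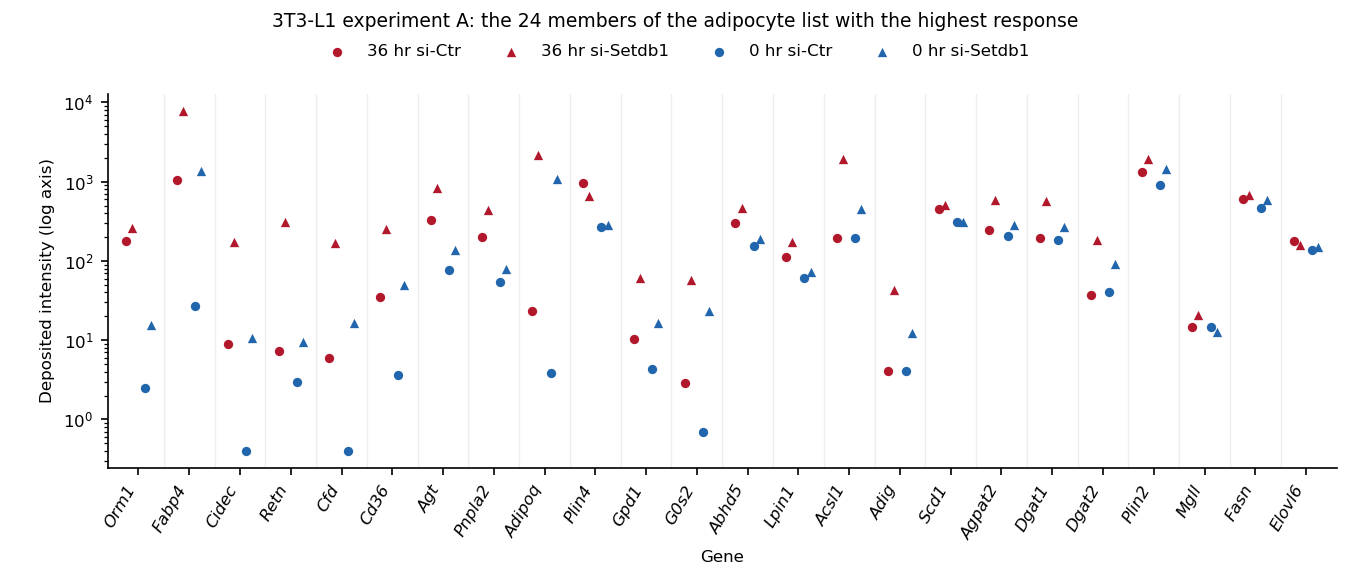
Deposited intensity (log axis) on the 4 arrays, with 36 hr in red and 0 hr in blue (circles si-Ctr, triangles si-Setdb1), for the 24 tested members of the adipocyte list with the highest response. Triangles stand above circles of the same time for most genes, as for Adipoq (2198.3 against 23.5 at 36 hr), and none of these genes passed the threshold.

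Genes of oxidative metabolism mostly read higher at 36 hr, with none passing. Of 27 tested genes of fatty acid oxidation and peroxisomes, 25 were higher and 1 lower in both pairs, with a median of 0.46 and a range from -0.37 to 3.53. Of the 27, 5 rose with the intensity trend, beside 1.79% of all genes. Pdk4, which spares glucose by inhibiting pyruvate dehydrogenase, read 171.3 and 453.5 at 36 hr, against 67.8 and 99.5 at 0 hr (1.74, adjusted p = 0.074). Acadm, the medium-chain acyl-CoA dehydrogenase, read 1748.6 and 2553.2 at 36 hr, against 1021.1 and 1494.4 at 0 hr (0.71, adjusted p = 0.142). Of 33 genes of the respiratory chain and citrate cycle, 28 were higher and none lower in both pairs, with a median of 0.25 and Idh2 leading at 1.07 (adjusted p = 0.0902). Cholesterol synthesis and uptake had a median of 0.28 with 15 of 23 higher and none lower in both pairs. The other metabolic lists lay close to these, with medians of 0.23 for glycolysis and glucose uptake (24 tested) and 0.17 for fatty acid and triglyceride synthesis (22 tested). Ribosomal protein genes, with 18 tested and none past the threshold, had a median of 0.04.

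Igf1, a growth factor that adipogenic cells secrete and respond to, read 147.8 and 331.0 at 36 hr, against 703.1 and 1504.8 at 0 hr. The times did not overlap, and the response of -2.15 ± 0.28 did not pass (adjusted p = 0.0618). It was the lowest of 22 tested genes of the insulin and IGF axis, where 11 were lower and 7 higher in both pairs. Irs1, a docking protein of the insulin receptor, had -1.10 (adjusted p = 0.074), and Pik3r1, a regulatory subunit of PI3 kinase, 0.96 (adjusted p = 0.0835). Of 26 tested Wnt genes, 14 were lower and 3 higher in both pairs, with a median of -0.49, and the receptor Fzd1, with the smallest p, had -1.15 (adjusted p = 0.0694). Among 14 clock genes, Per1 rose and Dbp, an output gene of the clock, fell by 1.44 (adjusted p = 0.0316). Of all genes, 0.282% rose and 0.282% fell. Dbp read 78.5 and 82.5 at 36 hr, against 219.1 and 254.0 at 0 hr. Per2 had 1.53 (adjusted p = 0.0635) and the repressor Nr1d2 -2.11 (adjusted p = 0.0819). The lists of p53 targets (22 tested), stress response (28), and bone, cartilage and muscle genes (12) held no gene that passed, and their medians lay between -0.18 and -0.02. All 3 medians changed sign over the settings, and that of the bone, cartilage and muscle list ran from -1.0 with the stricter filter to 0.11 without the si-Ctr 36 hr array.

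**Figure D4:**
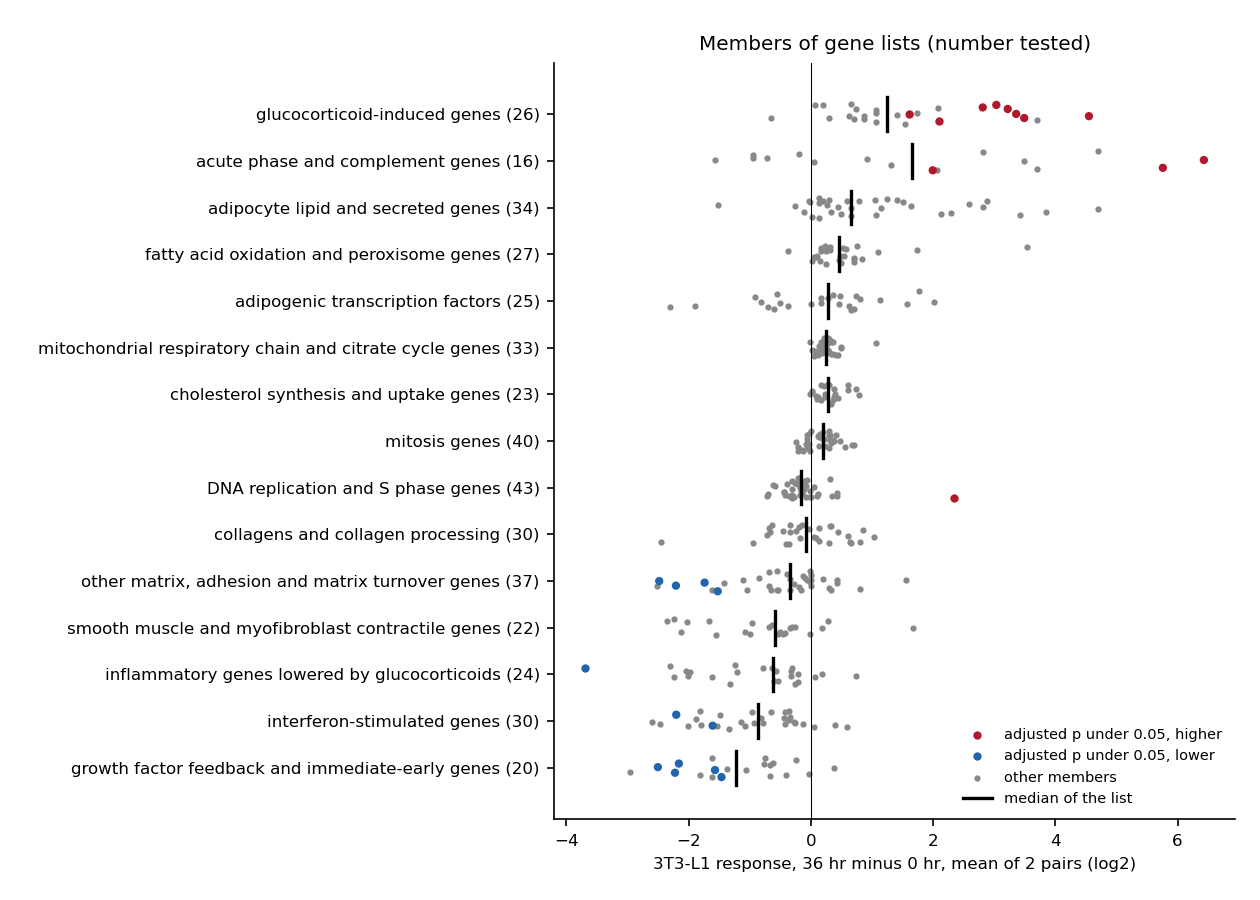
Response (36 hr minus 0 hr, mean of 2 pairs, log2) of each tested member of 15 gene lists, with the number tested in brackets, coloured where the adjusted p was under 0.05, and a bar at the list's median. The glucocorticoid-induced list (median 1.24) and the growth factor feedback list (median -1.22) hold 8 rises and 5 falls.

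Mitosis genes read slightly higher at 36 hr in 3T3-L1 and lower at 48 hr in 10T1/2. Of 40 tested mitosis genes none passed in 3T3-L1, 21 were higher and 3 lower in both pairs, and the median response was 0.19, which turned to -0.03 without the si-Setdb1 36 hr array. In 10T1/2 at 48 hr against 0 hr, all 40 were lower in both pairs, with a median of -1.35, where 31.7% of all genes were higher and 32.6% lower in both pairs of that line. Ccnb2, a cyclin of mitotic entry, read 266.9 and 378.7 at 36 hr, against 186.2 and 209.2 at 0 hr in 3T3-L1 (0.71 ± 0.20, adjusted p = 0.202), whereas its 10T1/2 response was -1.33. The median difference between the lines, 3T3-L1 minus 10T1/2, was 1.55.

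The difference was tested gene by gene. No gene of 12433 (0%) passed limma's test of the line difference, with 1218 at an unadjusted p under 0.05 and a smallest adjusted p of 0.0945. With the intensity trend 51 genes were higher (0.41%) and 46 lower (0.37%), and 24 of the 40 mitosis genes were among the 51. With a stricter filter on dim genes 0.362% of 8288 genes were higher, and 17 of the 34 mitosis genes left were among them. With a pseudocount of 16, 7 genes passed and none of the 40 mitosis genes was among them. The lines were harvested at 36 hr and 48 hr, so line and time cannot be told apart.

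Of the DNA replication and S phase genes, 41 of 43 were lower in both 10T1/2 pairs (median -0.93), and 18 lower and 7 higher in both 3T3-L1 pairs (median -0.16, which lay between -0.39 and 0.04 over the settings). E2f2, an activator of S phase genes, was the 1 that rose, and it was dim, with 13.0 and 16.4 at 36 hr, against 2.0 and 2.3 at 0 hr (2.34 ± 0.20, adjusted p = 0.0316). The si-Ctr and si-Setdb1 arrays of experiment B at 0 hr read 14 and 15.7, so E2f2 at 36 hr lay within the range of the 0 hr arrays on 1 array and above it on the other.

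The cell cycle genes homology region, TTTGAA on either strand, through which the DREAM and MuvB complexes time mitotic genes, occurs in the RefSeq window of 25 of 35 listed mitosis genes (71.4%), against 20.2% of all genes with a window. The windows of 2 members, shown for the match near the start site and with it in capitals, follow.
Aurka, chr2:172370521-172370578 (-): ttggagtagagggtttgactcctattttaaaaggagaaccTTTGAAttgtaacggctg
Cdca8, chr4:124936868-124936944 (-): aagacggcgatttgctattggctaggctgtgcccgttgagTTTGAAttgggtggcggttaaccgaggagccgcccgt
Aurka, a mitotic kinase, had a response of 0.31 in 3T3-L1 and -1.22 in 10T1/2, and Cdca8, a subunit of the chromosomal passenger complex, 0.37 and -1.29. Neither passed in 3T3-L1 (adjusted p = 0.402 and 0.407).

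**Figure D5:**
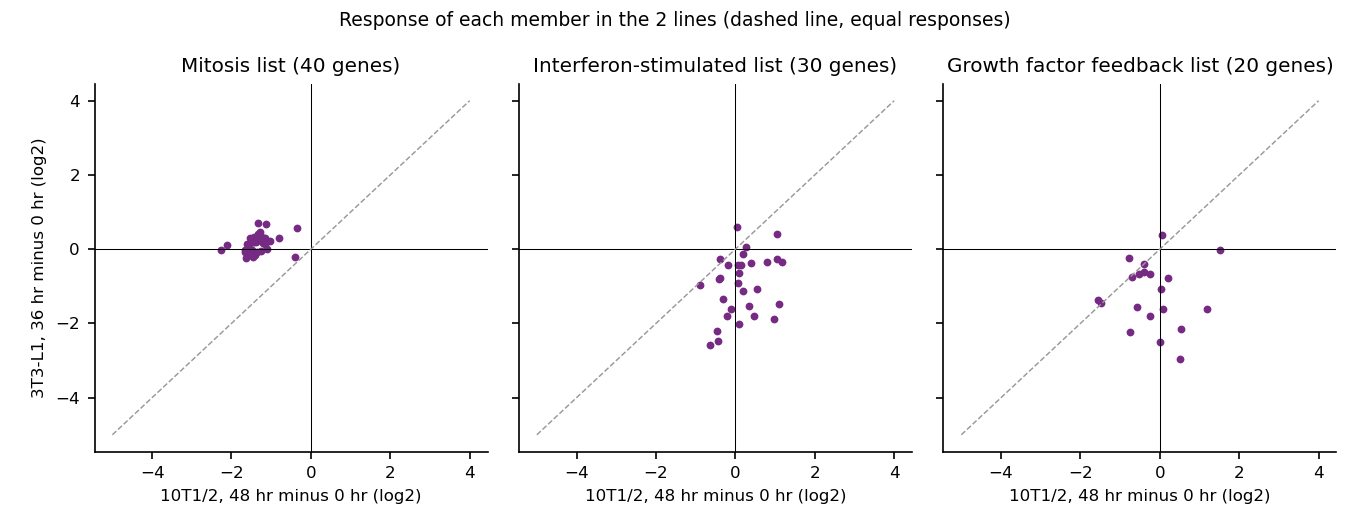
Response of each tested member in 3T3-L1 (36 hr minus 0 hr, vertical axis, log2) against 10T1/2 (48 hr minus 0 hr, horizontal axis, log2) for 3 lists, with the dashed line marking equal responses. The 40 mitosis genes lie left of 0 in 10T1/2 and around 0 in 3T3-L1, and most interferon-stimulated genes lie below the dashed line.

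The genes called in 3T3-L1 were then read in the other line. Of the 35 risen genes 34 were also higher in both 10T1/2 pairs, beside 31.7% of all genes. Their median response there was 2.14, beside 2.34 in 3T3-L1. Of the 35 fallen genes 26 were lower and 4 higher in both 10T1/2 pairs, beside 32.6% and 31.7% of all genes. Their median was -0.45 there and -1.95 in 3T3-L1. The 3T3-L1 values chose these genes, so their larger size in 3T3-L1 is a description. The 10T1/2 arrays also entered the spread of the fit that called them, so these counts are not an independent check. The glucocorticoid-induced list had medians of 1.24 in 3T3-L1 and 1.78 in 10T1/2. Interferon-stimulated genes had -0.87 and 0.09, and growth factor feedback genes -1.22 and -0.25.

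Among the brighter genes that the naming rule took for the line difference, Crip1, a LIM protein, had a response of 0.67 in 3T3-L1 and -2.99 in 10T1/2 (difference 3.66, adjusted p = 0.0945). Egr1 had -2.16 in 3T3-L1 and 0.53 in 10T1/2, and Slc40a1 -2.14 and 0.54 (adjusted p of the difference 0.135 for both). Tnfrsf21, a death receptor, had -0.59 in 3T3-L1 and 2.38 in 10T1/2 (adjusted p = 0.122). Xdh rose in 3T3-L1 by 1.90 and stood at 3.64 in 10T1/2 (difference -1.73, adjusted p = 0.176).

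Whether the 2 pairs differed was tested with an interaction term, in which the 0 hr siRNA difference is averaged over experiments A and B, so its value is not exactly the difference of the 2 pair values. No gene passed (0%), with 786 at an unadjusted p under 0.05 and a smallest adjusted p of 0.611, and each pair is 1 array against 1. Among the genes named by the rule for brighter genes, Fabp4 had a difference of 2.56 in the si-Setdb1 pair and 5.13 in the si-Ctr pair (interaction -2.40, adjusted p = 0.611). For Fam107a the pairs showed 5.96 (si-Setdb1) and 10.09 (si-Ctr), an interaction of -3.69 (adjusted p = 0.611). Chst1, a sulfotransferase of carbohydrates, read 219.0 on the si-Setdb1 array and 17.7 on the si-Ctr array at 36 hr, and 258.7 and 146.6 at 0 hr (interaction 2.82, adjusted p = 0.68). Retn stood at 4.76 in the si-Setdb1 pair and 1.0 in the si-Ctr pair. The missed threshold does not show that the pairs responded alike.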

How the data were processed

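Total RNA was turned into biotin-labelled cRNA and read on Affymetrix arrays, per the labels' protocols. The deposited table holds an intensity for every probe set on each array, and from the values the mean without 2% at each end is about 100 on every array. The log2 ratio columns that the authors deposited beside them were not used. Software and genome build: not given in the sources used here.

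Of 45037 probe sets other than controls, 38068 had 1 symbol in the deposited table. Of these, 1947 older symbols were updated through RefSeq and 2932 were kept unmatched. The probe set with the highest mean stood for each of 20720 genes. To each intensity 0.8 was added (the 10th percentile of all intensities) before taking log2, and the values were quantile normalised because array medians differed by up to 0.648 (log2), and genes under the 40th percentile of mean intensity (9.26) were left out.

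The response was fitted with limma 3.58.1 in R 4.3.3 on the 10 si-Ctr and si-Setdb1 arrays, with terms for line, siRNA within line, experiment, and time within line (3 residual degrees of freedom, prior 2.14). It is tested 2-sided with Benjamini-Hochberg adjustment at 0.05 over 12433 genes. The interaction fit had 2 residual degrees of freedom. The code was tested on simulated data. The labels name no separate cultures, and no condition was repeated within an experiment. In the response fit, the spread is how far si-Ctr and si-Setdb1 arrays disagree on each line's time difference and on the experiment difference. A p-value reflects that spread alone, which may be technical and also holds any effect of the siRNA on these differences. The siRNA label pairs the arrays.

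The rule named the 12 largest rises and falls with an intensity of at least 20 on both arrays of the higher time, skipping genes with only a clone name, up to 4 members of each of 32 lists (5 of them cell type markers), 5 adipogenic or receptor genes, and 6 genes per direction of each difference. The members, lists and 10 promoter motifs were chosen with earlier results of these data known. Other list members and the remaining genes past the threshold were named after their values were seen. A few results are not reported here. Alternatives covered scaling, pseudocount, filter, probe set choice, variance model and arrays used.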

Additional observations from a re-analysis of the deposited data

Results flagged for a closer look

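For genes past the threshold in 3T3-L1 and for gene lists, responses that ran in opposite directions in both pairs of each line are given as the response in 3T3-L1 (36 hr) minus that in 10T1/2 (48 hr), on the log2 scale. For single genes the difference was tested with limma. Ccl11 had -3.07 in 3T3-L1 and 0.44 in 10T1/2, a difference of -3.51 (adjusted p = 0.176). Egr1 differed by -2.69 and Slc40a1 by -2.68 (adjusted p = 0.135 for both), and each was lower in both 3T3-L1 pairs and higher in both 10T1/2 pairs. The same held for Rtp4, outside the naming rule, with -1.53 in 3T3-L1 and 0.14 in 10T1/2 (adjusted p = 0.176).

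The median of a gene list had opposite signs in both pairs of each line for 6 lists, and these differences of lists were not tested. Mitosis genes differed by a median of 1.55 and cholesterol synthesis and uptake genes by 0.608, with 3T3-L1 above 0. With 3T3-L1 below 0, interferon-stimulated genes differed by -1.09, cAMP-responsive genes by -0.67, the insulin and insulin-like growth factor axis by -0.279 and collagens by -0.214. Line and time cannot be told apart in these differences.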

How the results depend on the processing

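The 70 genes past the threshold became 97 with the deposited scaling (70 of them shared), 93 with array medians subtracted (69 shared) and 47 with the mean of the probe sets (42 shared). They became 421 with a pseudocount of 16 (67 shared), 395 with a stricter filter on dim genes (45 shared) and 514 with an intensity trend (67 shared). By limma, 0 passed with no filter, without experiment B, or on the 4 arrays alone with or without the siRNA as replicate block (2066, 1996, 2007 and 1308 genes at an unadjusted p under 0.05), and leaving out any 1 array gave 0 in every case. The fits on fewer arrays have fewer residual degrees of freedom, and for the other settings the cause was not tested. The line difference gave 7 genes with a pseudocount of 16, 65 with the stricter filter, 97 with the intensity trend and 0 otherwise, and the pair difference gave 0 under the 7 settings it was run with, none of which left out arrays. Of genes at least 2-fold in both pairs, 395 in all, there were 181 with a pseudocount of 16, 1140 with no filter and 184 with the stricter filter.

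Of 132 genes named for the response, 34 of them called, none of the called and 8 of the others changed direction. With the mean of the probe sets, Foxm1 had -0.21, Rps6 -0.70 and Epcam -0.59. Over the fits leaving out 1 array, Pdgfrb ran from -0.91 to 0.0455, Cd14 from -0.16 to 0.52, Csf1r from -0.24 to 0.65, Tek from -1.01 to 0.25, Krt5 from -0.56 to 2.35 and Epcam from -0.14 to 0.61. The cause was not tested. With 2 pairs, the number of arrays limits precision.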
